A study of Homo sapiens with 24 samples.

Results

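The mitosis and G2/M genes were 48 listed genes for the mitotic cyclins and kinases, the kinesins, the spindle, kinetochore and checkpoint proteins, and the enzymes that start and end division. All 48 symbols matched 1 gene identifier each among the 58735 in the count files, and each had enough reads to be tested. They were followed in HT-144, an established human line from a melanoma metastasis, in which RNA was sequenced 3 days after transfection. SREBF1, a transcription factor gene for lipid synthesis, was targeted with a pooled small interfering RNA (siSREBF1, 50 nM) or with either of a pair of antisense oligonucleotides (ASO-SREBF1-S1 and ASO-SREBF1-S4, 5 nM each, called S1 and S4 here). The controls were a non-targeting siRNA (siNegative, 50 nM), a non-targeting ASO (ASO-Neg, 5 nM) and a mock transfection. Every group shared the same lipid transfection reagent and a culture medium with an insulin, transferrin and selenium supplement. The 4 files per group were sequencing lanes of 1 library, so each group was 1 library of 1 cell line, and p-values measure the spread between reagents rather than between cultures.

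Cells that approach division make cyclins A and B, which switch on the kinase CDK1 once CDC25 phosphatases have removed its inhibitory phosphates. PLK1 and the Aurora kinases then help to build the spindle, kinesins move chromosomes and microtubules, and the spindle checkpoint holds back the anaphase-promoting complex until chromosomes are attached. Many of these genes are transcribed together late in the cell cycle, by FOXM1 and MYBL2 with the MuvB complex, and are held down in resting cells by the DREAM complex. MuvB reads a short promoter element called the cell cycle genes homology region (CHR).

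The CHR was looked for because these genes are often described as sharing it. The letters TTTGAA or TTCGAA were searched on both strands from 100 bases before to 50 bases after the start in the RefSeq promoter table (GRCh38.p14). Of the 40 members with an entry, 30 (75%) held the motif, against 2483 of 27305 genes (9.09%). No motif of these letters was in that window for AURKB, CCNA2, CCNB1, CENPE, KIF20A, KIF2C, NEK2, PTTG1, TOP2A and UBE2S. The 100 bases before the start are shown for 5 members with the motif, written 5′ to 3′ on the gene's strand with the motif in capitals. The 5 do not stand for all 30. A motif had to lie wholly before the start, with no annotated exon in the stretch shown. MKI67 was among the members named by rule, and the others were taken in order of their fall in S4 over ASO-Neg.
MKI67: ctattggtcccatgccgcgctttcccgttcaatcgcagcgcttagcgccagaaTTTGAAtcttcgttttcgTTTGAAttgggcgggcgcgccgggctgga
ESPL1: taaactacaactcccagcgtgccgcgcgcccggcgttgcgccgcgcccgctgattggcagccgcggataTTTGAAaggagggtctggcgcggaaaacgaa
KIF4A: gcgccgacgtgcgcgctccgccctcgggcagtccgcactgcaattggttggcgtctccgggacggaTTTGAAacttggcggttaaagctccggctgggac
CDC20: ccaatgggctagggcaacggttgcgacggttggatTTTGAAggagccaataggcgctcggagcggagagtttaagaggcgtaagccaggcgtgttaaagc
KIF11: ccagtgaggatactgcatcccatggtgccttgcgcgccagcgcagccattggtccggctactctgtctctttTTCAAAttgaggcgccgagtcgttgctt
The stretches lie at chr10:128126424-128126523 (minus strand) for MKI67, chr12:53268199-53268298 (plus strand) for ESPL1, chrX:70290004-70290103 (plus strand) for KIF4A, chr1:43358881-43358980 (plus strand) for CDC20 and chr10:92593030-92593129 (plus strand) for KIF11. MKI67 held the motif at 2 places, whose first bases lay at positions -47 and -29 from the start. In ESPL1, KIF4A and KIF11 it began at -31, -34 and -28, and in CDC20 at -65. In KIF11 it reads TTCAAA, the motif on the opposite strand. These matches describe the letters of the promoters and were not tested for binding.

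SREBF1 itself had 54.9, 76.9 and 70.3 CPM in siSREBF1, S1 and S4, against 249, 217 and 232 CPM in siNegative, ASO-Neg and mock. The groups did not overlap, and the log2 ratio was -1.78 ± 0.12 (SE, edgeR adjusted p = 0.00164). Gene counts were 13206869 for siSREBF1, 47900277 for S1, 15901894 for S4, 20014261 for siNegative, 17415823 for ASO-Neg and 12916478 for mock. CPM here is the TMM-scaled CPM of a gene, its count relative to the library total times a factor per library that aligns most genes, and 3 counts were worth 0.0626 to 0.232 CPM. All 8 melanocytic markers were measured in each library (summed level 4196, 5587 and 4123 CPM in siSREBF1, S1 and S4, against 4795, 5048 and 6281 CPM in siNegative, ASO-Neg and mock). Summed immune markers stood at 0.627 to 2.83 CPM, keratinocyte markers at 23.0 to 29.3 CPM, and endothelial markers at 37.7 to 57.2 CPM. The 8 fibroblast markers summed to 637 to 940.1 CPM over the libraries, highest in S4, and COL1A2, a collagen gene that made up most of that sum, had 675, 557 and 874 CPM in siSREBF1, S1 and S4, against 797, 613 and 574 CPM in siNegative, ASO-Neg and mock.

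Per kilobase of exon, 47 members lay between 4.65 CPM (CDC25C) and 68.8 CPM (AURKA), with a median of 18.8 CPM. The mitotic kinase AURKA, the separase inhibitor PTTG1 (68.5), the DNA topoisomerase TOP2A (65.0), the ubiquitin-conjugating enzyme UBE2C (63.6) and cyclin B1 (CCNB1, 54.6) were the 5 highest on that scale. The exception was PRC1, which bundles the microtubules of the central spindle, at 105 reads in all libraries together. PRC1 (chr15:90966040-90995629, minus strand, GRCh38) overlaps an annotated read-through gene on its own strand with 844 counts, so its reads are uncertain. It had 0.522, 0.808 and 0.614 CPM in siSREBF1, S1 and S4, against 1.31, 0.823 and 0.705 CPM in siNegative, ASO-Neg and mock, and is left out of the contrasts of single libraries, which need 10 CPM in 1 of the 2 libraries. CENPA overlaps SLC35F6, and KIF4A and PTTG1 have near-identical copies, so their values share that uncertainty.

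Between libraries the members moved little. The highest library stood a median of 1.2 times above the lowest, from 1.08 times for MAD2L1, a checkpoint protein, to 1.68 times for SPC25, a kinetochore protein. S4 was the lowest library for 34 of 48 members, against 21.8% of all genes tested. ASO-Neg was the highest library for 33 of 48, against 11.9% of all genes. The lowest was siSREBF1 for 10 members, mock for 2, S1 for 1 and siNegative for 1. Both held at once, S4 lowest and ASO-Neg highest, for 23 members, but the share of all genes with both was not computed. The summed level of the members was 4311, 4512 and 4024 CPM in siSREBF1, S1 and S4, against 4685, 4989 and 4570.1 CPM in siNegative, ASO-Neg and mock. In these bulk samples, fewer cells in division and less RNA of these genes per dividing cell cannot be told apart.

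**Figure D1:**
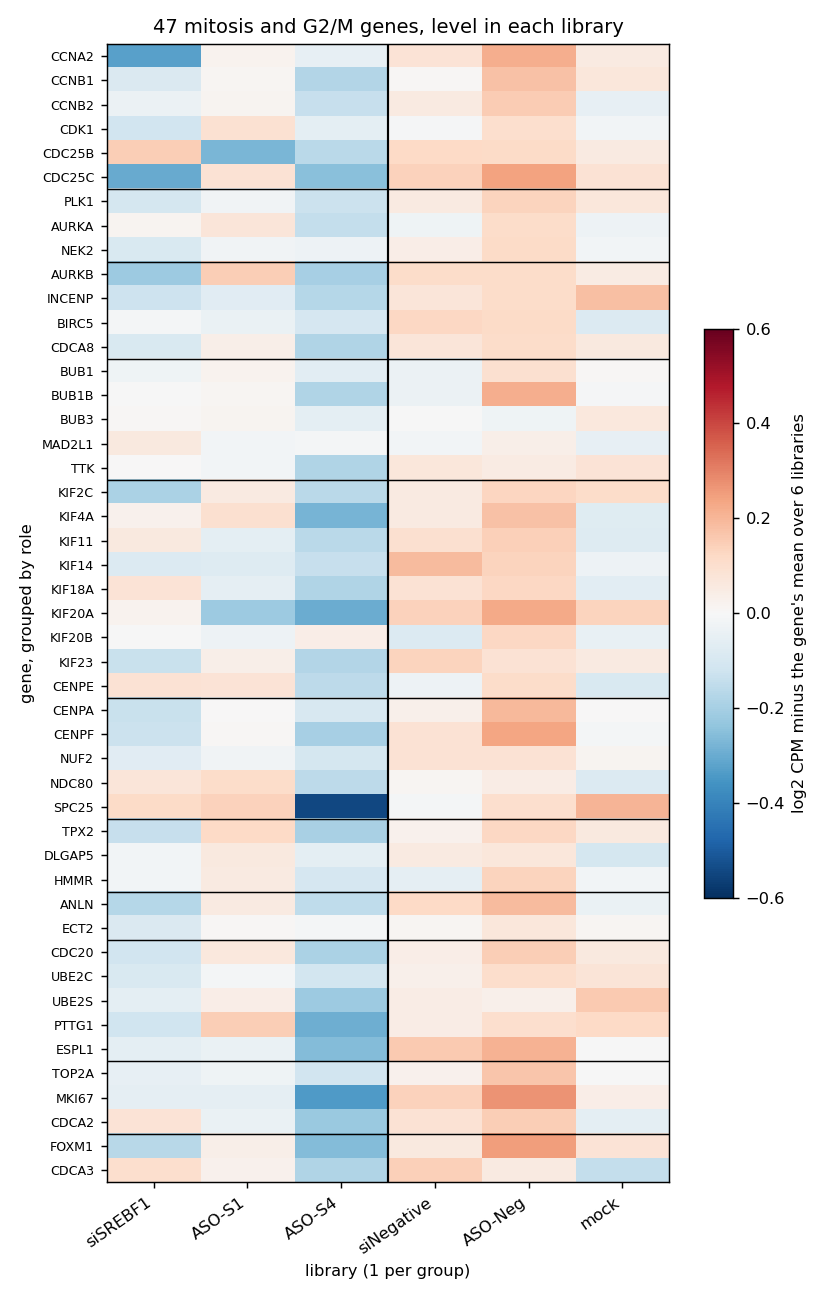
Level of 47 mitosis and G2/M genes in each library (columns, 1 library per group, SREBF1-targeting left of the black line and controls right of it), as the log2 of TMM-scaled CPM minus the gene's mean over the 6 libraries, on a colour scale symmetric about 0. Rows are grouped by role. The S4 column is mostly blue and the ASO-Neg column mostly red: S4 was the lowest library for 34 of 48 members and ASO-Neg the highest for 33.

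No member passed the test over all genes when the 3 SREBF1-targeting libraries were set against the 3 control libraries. The edgeR quasi-likelihood test called 6 of 15123 genes lower (0.0397%) and 3 higher (0.0198%), and 0 of 48 members in either direction. DESeq2 and limma-voom also called 0 members. The members nonetheless lay mostly on 1 side: 45 of 48 had a log2 ratio below 0, against 48.5% of all genes, with a median of -0.14 and a range from -0.49 (PRC1) to 0.023 (NDC80). At an unadjusted p under 0.05 there were 12 members lower and 0 higher, against 5.3% of all genes lower and 4.93% higher. The 12 were CCNA2, CDC25C, PLK1, INCENP, KIF2C, KIF14, KIF20A, KIF23, CENPF, ESPL1, MKI67 and FOXM1. The 3 targeting libraries lay below the 3 controls without overlap for 18 of 48 members (all genes 8.54%) and above them for 0 (all genes 8.86%). Many members are transcribed together and all were read in the same libraries, so the members in such counts are not independent of each other.

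Which libraries were included set much of that count. The 12 became 21 without S1 (all genes 7.41% lower), 3 without S4 (5.72%) and 6 without siSREBF1 (6.04%). With a control left out they were 4 without siNegative (all genes 3.19% lower), 2 without ASO-Neg (4.73%) and 8 without mock (3.33%). With library totals as the only scaling there were 5 (all genes 3.36% lower and 8.55% higher). DESeq2 had 7 members lower at an unadjusted p under 0.05 (all genes 4.4%) and limma-voom 10 (5.75%). In each of these fits 0 members were higher. The number below 0 stayed between 39 and 48 when 1 library was left out, and was 38 with library totals only.

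INCENP and KIF20A had the smallest adjusted p. INCENP, the scaffold of the chromosomal passenger complex, had 139, 145 and 135 CPM in siSREBF1, S1 and S4, against 159.6, 164 and 172 CPM in siNegative, ASO-Neg and mock. The log2 ratio was -0.24 ± 0.066 (SE, edgeR adjusted p = 0.271), and the lowest control library stood above the highest targeting library. KIF20A, a kinesin of the central spindle and cytokinesis (chr5:138178719-138187723, plus strand, GRCh38), had 116, 98.6 and 93.3 CPM in siSREBF1, S1 and S4, against 126, 134 and 126 CPM in siNegative, ASO-Neg and mock. It averaged 103 ± 12.1 CPM in the targeting libraries and 129 ± 4.77 CPM in the controls (SD, n = 3 each), and the log2 ratio was -0.33 ± 0.089 (SE, edgeR adjusted p = 0.271). The ASO libraries were the 2 lowest for KIF20A, and siSREBF1 lay between them and the controls.

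MKI67, a protein that coats mitotic chromosomes and is widely used to mark cycling cells (chr10:128096659-128126423, minus strand, GRCh38), had 241, 241 and 198 CPM in siSREBF1, S1 and S4, against 276, 302 and 257 CPM in siNegative, ASO-Neg and mock. S4 stood apart on the low side and ASO-Neg on the high side, without overlap of the 2 sides. The log2 ratio was -0.30 ± 0.097 (SE, edgeR adjusted p = 0.339). FOXM1, the transcription factor that drives G2/M genes, had 124, 143 and 117 CPM in siSREBF1, S1 and S4, against 145, 166 and 148 CPM in siNegative, ASO-Neg and mock. All 3 targeting libraries were below the 3 controls, although S1 was close to siNegative. The log2 ratio of FOXM1 was -0.26 ± 0.092 (SE, edgeR adjusted p = 0.377). PLK1, the kinase that promotes mitotic entry and spindle assembly, had 91.2, 96.6 and 89.6 CPM in siSREBF1, S1 and S4, against 102, 107 and 103 CPM in siNegative, ASO-Neg and mock, which gave -0.17 ± 0.065 (SE, edgeR adjusted p = 0.422).

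**Figure D2:**
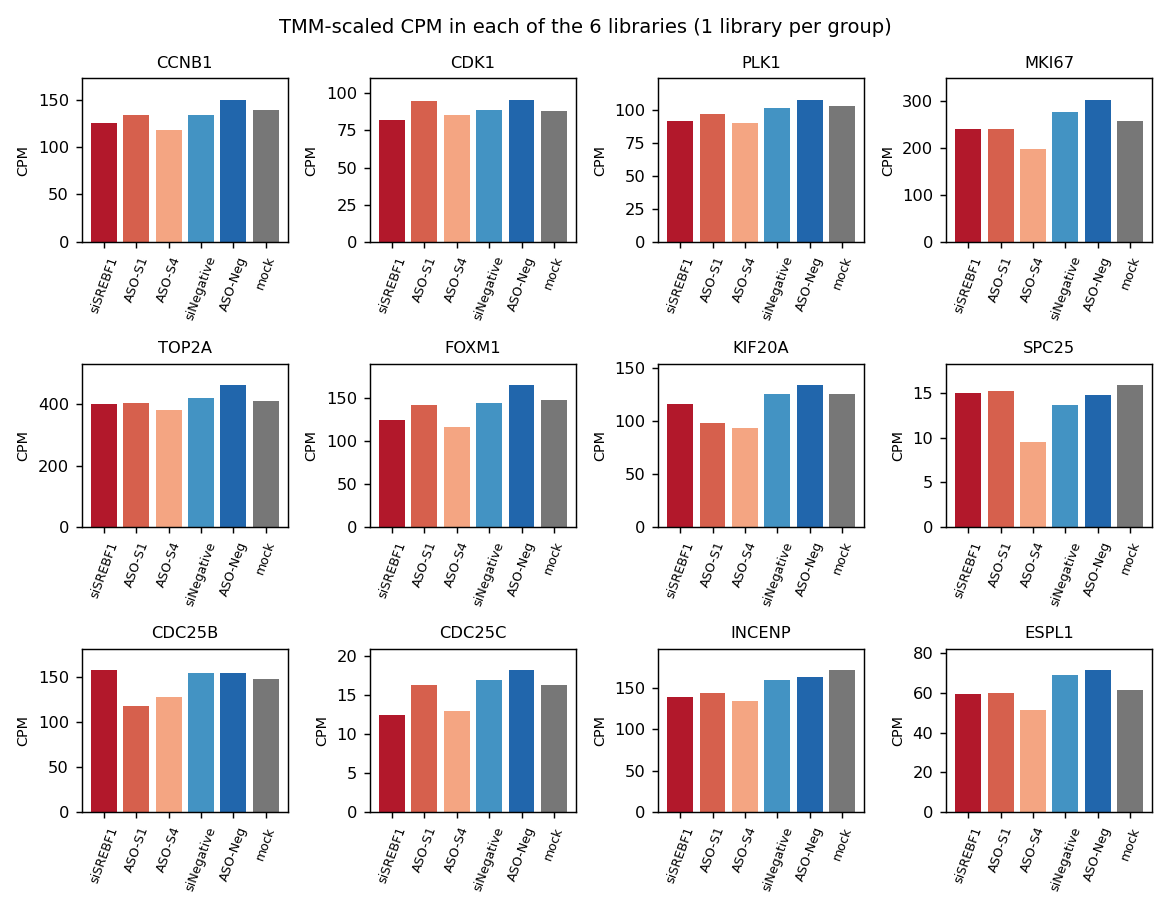
TMM-scaled CPM of 12 mitosis and G2/M genes in each of the 6 libraries (bars, 1 library each, no error bar because groups had 1 library), on linear axes that start at 0. Targeting libraries stand left of the controls. MKI67 was 198 CPM in S4, the lowest bar, and 302 CPM in ASO-Neg, the highest, and SPC25 was low in S4 alone at 9.46 CPM.

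Each targeting library was then set over the non-targeting reagent of its own kind. These matched contrasts rest on 1 library a side and have no test, and their intervals cover counting error only. S1 and S4 share ASO-Neg as their reference. In S4 over ASO-Neg, 47 of 47 members had a log2 ratio below 0 (all genes 54.8%), with a median of -0.28 (all genes -0.023). Of these, 14 were at or below -0.32 (all genes 7.25%), the smaller of the 2 folds used, and 0 were at or above 0.32 (all genes 7.1%). The 95% counting interval lay below 0 for 42 (all genes 27.6%). In S1 over ASO-Neg, 41 of 47 were below 0 (all genes 47.7%), with a median of -0.12, or -0.074 with library totals as the only scaling. There 3 were at or below -0.32 (all genes 5.79%), KIF20A, CDC25B and MKI67, and 0 at or above 0.32 (4.45%). In siSREBF1 over siNegative, 36 of 47 were below 0 (all genes 51.5%), with a median of -0.11, or -0.069 with library totals only. There 3 were at or below -0.32 (all genes 6.95%), CDC25C, CCNA2 and AURKB, and 0 at or above 0.32 (5.02%). None of the 47 was 2-fold apart in these contrasts, and 34 were below 0 in all 3 (all genes 20.4%). Of all genes, 0.274% were at least 2-fold lower and 0.426% higher in S4 over ASO-Neg, 0.328% lower and 0.154% higher in S1 over ASO-Neg, and 0.213% lower and 0.304% higher in siSREBF1 over siNegative.

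The controls themselves differed. In ASO-Neg over mock, 41 of 47 members were above 0 (all genes 46.8% below 0), with a median of 0.13, and the counting interval lay above 0 for 23 (all genes 16.9%). None was at or above 0.32 (all genes 1.51%). In siNegative over mock, 30 were above 0 (all genes 50.4% below 0), with a median of 0.029. Set over mock instead, the median of the members was -0.086 in siSREBF1, -0.00029 in S1 and -0.17 in S4. S1 then had 24 of 47 below 0 (all genes 47.3%). S4 had 44 below 0 (all genes 52.3%) and 8 at or below -0.32 (all genes 10.5%).

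**Figure D3:**
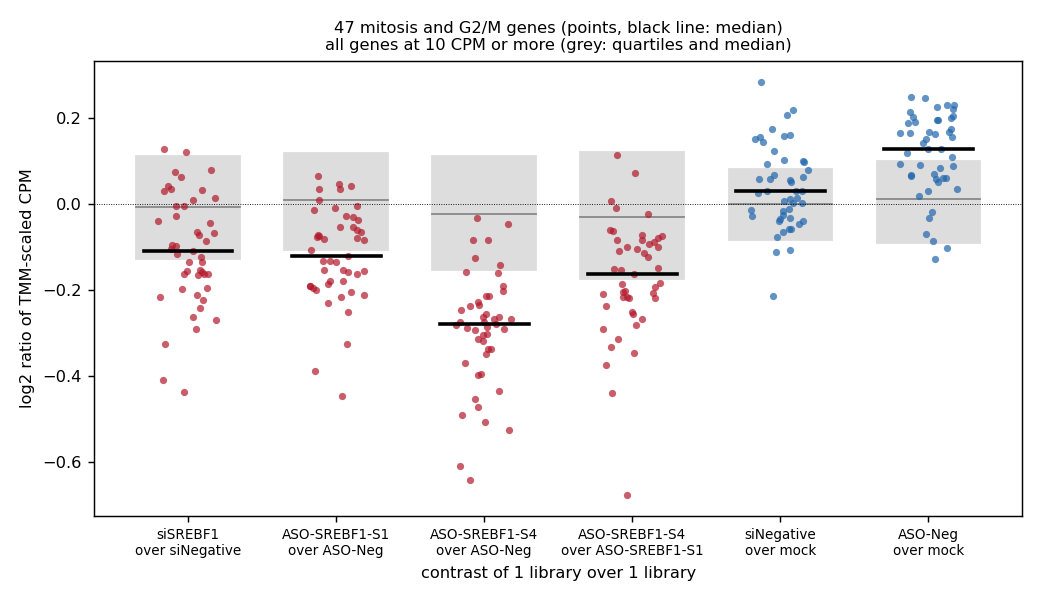
Log2 ratio of TMM-scaled CPM for 47 mitosis and G2/M genes (points, black line: their median) in 6 contrasts of 1 library over 1 library, targeting contrasts in red and control contrasts in blue. Grey boxes give the quartiles and median of all genes at 10 CPM or more. The points of S4 over ASO-Neg lie wholly below 0 (median -0.28), and those of ASO-Neg over mock lie mostly above it (median 0.13).

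Among the cyclins, CDK1 and the CDC25 phosphatases, 6 of 6 members were below 0 in S4 and in S1 over ASO-Neg, with medians of -0.28 and -0.16, and 5 of 6 in siSREBF1 over siNegative, with a median of -0.10. CCNB1, the cyclin that partners CDK1 at mitotic entry, had 125, 134 and 118 CPM in siSREBF1, S1 and S4, against 133, 149.7 and 139 CPM in siNegative, ASO-Neg and mock. S1 was just above siNegative, so the 2 sides overlapped, and S4 was the lowest library. CDK1, the kinase at the centre of entry into mitosis, had 82.2, 94.9 and 85.6 CPM in siSREBF1, S1 and S4, against 88.7, 95.6 and 88.0 CPM in siNegative, ASO-Neg and mock, and S1 stood nearly level with ASO-Neg. Its log2 ratio over the 3 controls was -0.049 ± 0.077 (SE, edgeR adjusted p = 0.868).

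CDC25C, a phosphatase that activates CDK1, had 12.4, 16.3 and 12.9 CPM in siSREBF1, S1 and S4, against 16.9, 18.2 and 16.3 CPM in siNegative, ASO-Neg and mock. It was the member with the lowest ratio in siSREBF1 over siNegative, at -0.44 (95% counting interval -0.71 to -0.17), and stood at -0.49 in S4 but -0.16 in S1 over ASO-Neg. CCNA2, the cyclin of S phase and early mitosis, had 44.9, 57.1 and 54.2 CPM in siSREBF1, S1 and S4, against 59.6, 65.3 and 58.4 CPM in siNegative, ASO-Neg and mock. It was lowest in siSREBF1, with a log2 ratio over siNegative of -0.41 (95% counting interval -0.55 to -0.27).

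CDC25B, the phosphatase that starts CDK1 activation, went another way. It had 158, 118 and 128 CPM in siSREBF1, S1 and S4, against 155, 155 and 148 CPM in siNegative, ASO-Neg and mock, so both ASO libraries were below the 4 others while siSREBF1 was the highest. The log2 ratio was -0.39 (95% counting interval -0.45 to -0.32) in S1 over ASO-Neg and 0.029 in siSREBF1 over siNegative.

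The mitotic kinases PLK1, AURKA and NEK2 were below 0 in 3 of 3 in each ASO contrast (median -0.26 in S4 and -0.13 in S1) and in 2 of 3 in the siRNA contrast (median -0.13). PLK1 had log2 ratios of -0.26 in S4, -0.15 in S1 and -0.16 in siSREBF1 over their own controls. In the chromosomal passenger complex, which corrects faulty spindle attachments, 4 of 4 members were below 0 in S4 and in siSREBF1, and 3 of 4 in S1. AURKB, its kinase, had 41.5, 53.4 and 42.0 CPM in siSREBF1, S1 and S4, against 52.0, 52.1 and 50.0 CPM in siNegative, ASO-Neg and mock. Only siSREBF1 and S4 were low for AURKB, and S1 was the highest of the 6 libraries.

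The spindle checkpoint was the 1 role with a median above 0 in siSREBF1 over siNegative (0.013), with 1 of its 5 members below 0. In S4 over ASO-Neg the median was -0.16, and in S1 it was -0.066. BUB1B, which inhibits the anaphase-promoting complex, had 52.8, 53.3 and 46.6 CPM in siSREBF1, S1 and S4, against 51.6, 61.5 and 52.6 CPM in siNegative, ASO-Neg and mock. S4 was low and ASO-Neg high, while the other 4 libraries lay between 51.6 and 53.3 CPM. BUB3, which carries checkpoint proteins to kinetochores, had 116, 116 and 110.5 CPM in siSREBF1, S1 and S4, against 115, 113 and 120.0 CPM in siNegative, ASO-Neg and mock. Its ratio in S4 over ASO-Neg, -0.034 (95% counting interval -0.13 to 0.059), was the nearest to 0 of the 47, and the interval held 0.

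Of the 9 kinesins, 9 were below 0 in S4 and in S1 over ASO-Neg, with medians of -0.29 and -0.16, and 7 in siSREBF1 over siNegative, with a median of -0.039. KIF20A had log2 ratios of -0.53 (95% counting interval -0.62 to -0.43) in S4 and -0.45 (95% counting interval -0.52 to -0.37) in S1, and it was the member with the lowest ratio in S1. In siSREBF1 over siNegative its ratio was -0.12. KIF4A, a chromosome-bound kinesin whose promoter is shown above, was at -0.45 in S4 but -0.079 in S1. KIF11, the motor that pushes spindle poles apart, was at -0.30 in S4, -0.20 in S1 and -0.039 in siSREBF1.

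SPC25, a subunit of the NDC80 complex that holds microtubules at the kinetochore (chr2:168834132-168913371, minus strand, GRCh38), had the lowest ratio of any member in S4. It had 15.0, 15.2 and 9.46 CPM in siSREBF1, S1 and S4, against 13.7, 14.8 and 15.9 CPM in siNegative, ASO-Neg and mock. The other 5 libraries lay between 13.7 and 15.9 CPM, so S4 alone was low. Its log2 ratio in S4 was -0.64 (95% counting interval -0.93 to -0.35) over ASO-Neg and -0.68 over S1. In siSREBF1 over siNegative it was 0.13, the highest ratio of any member there. NDC80, from the same complex, had 26.6, 27.3 and 22.7 CPM in siSREBF1, S1 and S4, against 25.5, 26.1 and 23.9 CPM in siNegative, ASO-Neg and mock and the highest ratio of the members in S1 over ASO-Neg, at 0.065. CENPF, a large kinetochore protein of G2 and mitosis, had 340.3, 375 and 325 CPM in siSREBF1, S1 and S4, against 396, 439 and 369.7 CPM in siNegative, ASO-Neg and mock. S1 was above mock for CENPF, so the sides overlapped.

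In cytokinesis, ANLN, the scaffold of the contractile ring, had 184, 215 and 186 CPM in siSREBF1, S1 and S4, against 225, 236 and 201 CPM in siNegative, ASO-Neg and mock, with siSREBF1 and S4 lowest. The genes that act with the anaphase-promoting complex or in chromosome separation were below 0 in 5 of 5 in S4 (median -0.34) and in siSREBF1 (median -0.16). In S1 they were below 0 in 3 of 5 (median -0.085). ESPL1, the protease separase that cuts cohesin, had 59.4, 60.0 and 51.5 CPM in siSREBF1, S1 and S4, against 68.8, 71.5 and 61.7 CPM in siNegative, ASO-Neg and mock. The 2 sides did not overlap, but S1 and mock were close. UBE2S, which extends ubiquitin chains for the anaphase-promoting complex, had 76.9, 82.3 and 68.9 CPM in siSREBF1, S1 and S4, against 82.6, 81.8 and 89.3 CPM in siNegative, ASO-Neg and mock, highest in mock. PTTG1, which holds separase inactive, was at -0.40 in S4 and 0.045 in S1 over ASO-Neg.

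TOP2A, which untangles sister chromatids, had 400.5, 406 and 382 CPM in siSREBF1, S1 and S4, against 421, 464 and 413 CPM in siNegative, ASO-Neg and mock. The sides did not overlap, yet S1 and mock were close, and the log2 ratio was -0.13 ± 0.073 (SE, edgeR adjusted p = 0.600). MKI67 was at -0.61 (95% counting interval -0.67 to -0.54) in S4, -0.33 in S1 and -0.19 in siSREBF1 over their controls. FOXM1 was at -0.51, -0.22 and -0.22 in the same contrasts. CDCA3, a cell cycle protein that helps to degrade the mitotic inhibitor WEE1, had 33.2, 31.5 and 27.3 CPM in siSREBF1, S1 and S4, against 34.2, 32.1 and 28.1 CPM in siNegative, ASO-Neg and mock, with the 2 sides interleaved.

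The 2 SREBF1 ASOs were also compared with each other. SREBF1 stood at -0.13 (95% counting interval -0.23 to -0.035) on the log2 scale in S4 over S1. In the same contrast 44 of 47 members were below 0 (all genes 56.3%), with a median of -0.16 (all genes -0.031), 5 at or below -0.32 (all genes 8.88%) and 0 at or above 0.32 (all genes 9.18%). SPC25 and PTTG1 had the lowest ratios, -0.68 and -0.44, and CDC25B the highest, 0.11. With 1 library each this has no replicate check.

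When the 2 ASO libraries were set against the 3 controls in a fit with 3 classes, 48 of 48 members were below 0 (all genes 48.8%), with a median of -0.14. edgeR called 7 of 16297 genes lower (0.043%) and 0 higher, and 0 members. KIF20A came nearest, with its log2 ratio at -0.42 ± 0.074 (SE, edgeR adjusted p = 0.0827). CDC25B, INCENP, KIF14, KIF20A, ESPL1 and MKI67 were the 6 members at an unadjusted p under 0.05 (all genes 5.86% lower). With 1 ASO library left out, the median of the members was -0.24 without S1 and -0.052 without S4. KIF20A stood at -0.47 without S1 and -0.38 without S4. In both cases the lone ASO library was assumed to vary like the other classes, so only log2 ratios are given here. With no filter on low counts, edgeR called KIF20A (adjusted p = 0.00452) and MKI67 (adjusted p = 0.0484) among 563 of 31378 genes. KIF20A also passed edgeR in the comparison of 3 against 3 without that filter (adjusted p = 0.0399). There too 31378 genes were tested and far more were called than with the filter, so these calls are not particular to the members.

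The difference between the siRNA and the ASOs was tested directly in the same fit, although the siRNA was used at 50 nM and the ASOs at 5 nM. edgeR called 24 of 16297 genes, 0.092% lower and 0.0552% higher in siSREBF1, and 0 members. The members divided evenly, 25 below 0 (all genes 50.8%) and 23 above, with a median of -0.0087. At an unadjusted p under 0.05 were CCNA2, lower in siSREBF1, and CDC25B and KIF20A, higher in it (all genes 4.32% lower and 4.39% higher). CDC25B had its log2 ratio at 0.36 ± 0.098 (SE, edgeR adjusted p = 0.289). Without S4, CDC25B had a log2 ratio of 0.42 and 37 members were below 0, while without S1 there were 11 below 0. Each of these refits compared 1 siRNA library with 1 ASO library, so the balance of signs depended on which ASO was kept. No share of all genes below 0 is given for them.

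Members with the searched letters in the promoter window had a median log2 ratio of -0.28 in S4 over ASO-Neg (29 members, from -0.64 to -0.047). The 10 without these letters had a median of -0.29, from -0.53 to -0.14, and the 8 with no entry were in neither group. Other forms of the element were not searched, so the split does not separate genes with a working CHR from genes without. MKI67, which held the motif, was at -0.61, and KIF20A, which had no motif of these letters in the window, was at -0.53. Apart from MKI67, the promoters shown above were picked by their low ratios in S4, so those ratios say nothing about the motif.

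Other cell cycle lists placed these values in context. In S4 over ASO-Neg, 54.8% of all genes were below 0. Below 0 there were 41 of 45 other mitosis genes (median -0.22), 14 of 14 condensin and cohesin genes (median -0.22) and 33 of 37 G1/S and replication genes (median -0.26). The list of anaphase-promoting complex subunits, which also held its regulators FZR1 and FBXO5, had a median of 0.010 over 15 measured genes. The list of DREAM and MuvB factors, which also held the NF-Y genes NFYA, NFYB and NFYC, had a median of -0.078 over 12. In S1 over ASO-Neg the same lists lay near 0: the median was -0.0032 for other mitosis genes, -0.0078 for condensins and cohesin, and 0.033 for G1/S genes. In siSREBF1 over siNegative these medians were -0.051, -0.021 and -0.0067. No gene of these lists passed over all genes in any of the 3 fits. At an unadjusted p under 0.05 in the 3 against 3 comparison, 5.3% of all genes were lower and 4.93% higher. By the same rule 3 of 49 other mitosis genes, 1 of 14 condensin and cohesin genes and 3 of 37 G1/S genes were lower, and 1 G1/S gene was higher. Of the 14 genes in the DREAM and MuvB list, NF-Y genes included, 0 were lower and 1 was higher.

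KNL1, the kinetochore platform that recruits checkpoint proteins, was the 1 gene of these lists at least 2-fold lower in S4 over ASO-Neg (all genes 0.274%), with a log2 ratio of -1.07 (95% counting interval -1.25 to -0.90). It had 46.9, 42.6 and 23.0 CPM in siSREBF1, S1 and S4, against 45.8, 48.4 and 40.2 CPM in siNegative, ASO-Neg and mock, so S4 alone was low, as for SPC25. DEPDC1, a mitosis-linked gene, had the lowest ratio of the list in siSREBF1 over siNegative, at -0.83. CDT1, which licenses replication origins, was at -0.64 in S4 and 0.61 in S1.

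Brakes on the cell cycle were measured as the opposite arm of the pathway. CDKN1A, which inhibits cyclin-dependent kinases, had 174, 228 and 280.4 CPM in siSREBF1, S1 and S4, against 165, 164 and 176 CPM in siNegative, ASO-Neg and mock, with S4 and S1 highest. Its log2 ratio in the ASO pair over the controls was 0.59 ± 0.096 (SE, edgeR adjusted p = 0.0666). GADD45A, a stress gene that can hold back CDK1, had 17.2, 24.4 and 29.1 CPM in siSREBF1, S1 and S4, against 17.5, 17.2 and 16.8 CPM in siNegative, ASO-Neg and mock, again high in both ASO libraries, and its ratio was 0.63 ± 0.11 (SE, edgeR adjusted p = 0.0742). BTG2, an antiproliferative gene, had 32.0, 29.0 and 41.8 CPM in siSREBF1, S1 and S4, against 26.2, 22.8 and 21.5 CPM in siNegative, ASO-Neg and mock. All 3 targeting libraries were above the controls for BTG2 (all genes 8.86%). BTG2, CDKN1A and GADD45A were the 3 of 12 tested brakes at an unadjusted p under 0.05 in the 3 against 3 comparison, all higher (all genes 4.93%). The smallest edgeR adjusted p of any brake in that comparison was 0.263. Of the 15 listed brakes, 11 were measured in S4 over ASO-Neg, 6 below 0 and 5 above, with a median of -0.050. In S1 over ASO-Neg 4 of 11 were below 0 and 7 above, with a median of 0.18, and in siSREBF1 over siNegative 5 of 10 were below 0 and 5 above, with a median of -0.0053. CCND1, the cyclin that drives G1, had 435, 459.8 and 437 CPM in siSREBF1, S1 and S4, against 379, 361 and 324 CPM in siNegative, ASO-Neg and mock. It was higher in each targeting library than in each control (all genes 8.86%). Of the 37 G1/S genes it was listed with, 23 were below 0 in the 3 against 3 comparison and 14 above.

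The same libraries also differed in genes outside the cell cycle. Mitochondrially encoded genes took 4.73%, 4.66% and 5.93% of counts in siSREBF1, S1 and S4, against 5.38%, 5.29% and 5.39% in siNegative, ASO-Neg and mock. Their 13 genes were above 0 in 13 of 13 in S4 over ASO-Neg (median 0.093) and below 0 in 12 of 13 in S1 (median -0.21), and in siSREBF1 over siNegative 13 of 13 were below 0 (median -0.20). Of the 8 melanocytic markers, 7 were below 0 in S4 over ASO-Neg (median -0.33) and 7 above 0 in S1 (median 0.13), and 7 were below 0 in siSREBF1 over siNegative (median -0.081). Their part in the values of the mitosis genes was not tested.

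**Figure D4:**
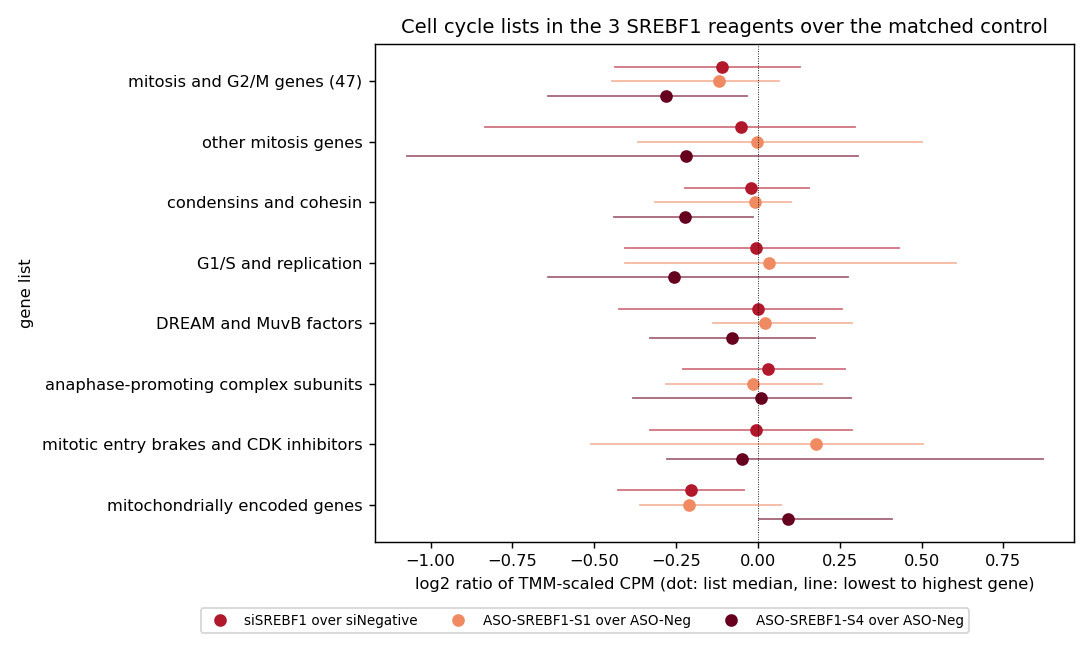
Median (dot) and range (line) of log2 ratios of TMM-scaled CPM for cell cycle gene lists and mitochondrially encoded genes at 10 CPM or more, in each targeting library over its matched control. S4 lies left of the other contrasts for the mitosis and G2/M genes (median -0.28), other mitosis genes, condensins and cohesin, and G1/S genes, and right of them for mitochondrially encoded genes (median 0.093).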

How the data were processed

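Per the labels' protocols, strand-specific libraries from polyadenylated RNA were sequenced from both ends with 75 bp a read. The authors deposited read counts per gene, 1 file per lane, from alignment with STAR 2.6.1a to GRCh38 (FastQC is also named), per the submitters' processing notes, and with an annotation not given in the sources used here. Summary lines that name no gene were left out, and 80.7% to 81.8% of read pairs were assigned to a gene. The reverse-strand column was used, since the other strand held 6.47% to 7.79% of counts, and the 4 lanes of each library were summed. Of 58735 gene identifiers, 58207 matched GENCODE release 44, which gave names, coordinates and exon lengths.

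After TMM scaling and filterByExpr, genes were tested in R 4.3.3 with edgeR 4.0.16 by the 2-sided quasi-likelihood F test with Benjamini-Hochberg adjustment over all genes at 0.05. The fits were checked on simulated counts with planted changes larger than any member's ratio in these fits, so the check did not cover changes of the members' size. The samples were 3 targeting against 3 control libraries (4 residual degrees of freedom), and a fit with 3 classes (3 residual degrees of freedom). Contrasts of single libraries are log2 ratios of scaled CPM with a prior count of 2 and a 95% counting interval, and were read against a 2-fold change and a smaller one (0.32 on the log2 scale), at 10 CPM or more in 1 of the libraries. Alternatives were DESeq2 1.42.0, limma-voom (limma 3.58.1), other scalings, no filter, unstranded counts, chemistry as a term, each library or lane left out, and mock as the control.

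The members and gene lists were chosen with earlier results of these data known. By rule, library values were given for CCNB1, CDK1, PLK1, MKI67, TOP2A and FOXM1, for the member of each role with the log2 ratio farthest from 0 in S4 over ASO-Neg, for the extremes of each contrast, for the smallest p of each fit, and for any member past the threshold or 2-fold apart. Values of AURKA, CCNA2, KIF4A, KIF11, MAD2L1, PTTG1, UBE2C, BTG2, CCND1, CDKN1A, CDT1, COL1A2, DEPDC1, GADD45A and KNL1 were chosen after they were seen.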

Additional observations from a re-analysis of the deposited data

How the results depend on the processing

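No paired analysis was possible because the replicate numbers are lanes of 1 library. Of the recomputed medians, counts and 3 against 3 ratios, 651 kept their direction and their side of the threshold or moved little, 58 moved further, 10 ratios changed sign, and the ratio of KIF20A newly passed with no filter. Member calls of the other fits enter as counts. The cause was not tested. A class left with 1 library was assumed to vary like the others. For 3 targeting over 3 control libraries, the 9 genes called became 509 with no filter on low counts, 170 with DESeq2, 5 with limma-voom and 0 with reagent chemistry as a term, and 1 to 103 when 1 library was left out (103 without S1, 3 without siNegative, 1 without ASO-Neg or mock). Members called lower were 1 with no filter (KIF20A), where 31378 genes were tested. For the ASO pair over controls, the 7 genes called became 3 with library totals only, 563 with no filter and 1 to 955 when 1 library was left out (955 without S1, 868 without S4, 1 without any 1 control). Members called lower were 2 with no filter and 0 to 6 with 1 library left out, and their median lay between -0.24 and -0.052. For siSREBF1 over the ASO pair, the 24 genes became 380 with no filter and 2 to 890 when 1 library was left out (395 without S1, 890 without S4, 2 or 3 without a control), members called higher 0 to 1, and the median -0.067 to 0.069.

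With library totals only, the median of the members was -0.069 in siSREBF1 over siNegative, -0.074 in S1 over ASO-Neg, -0.21 in S4 over ASO-Neg, -0.14 in S4 over S1 and 0.11 in ASO-Neg over mock. With mock as the control it was -0.086, -0.00029 and -0.17 for siSREBF1, S1 and S4, and 8 members were at or below -0.32 in S4. Unstranded counts gave 0.0085 for siNegative over mock. Leaving out 1 lane gave medians of -0.14 to -0.12 in S1 over ASO-Neg, -0.16 to -0.14 in S4 over S1, 0.0043 to 0.038 in siNegative over mock and 0.11 to 0.12 in ASO-Neg over mock, where 0 to 1 member was at or above 0.32.

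The small 3 against 3 ratios of 4 members changed sign. With 1 library left out, BUB3 ranged from -0.040 to 0.0017, CDCA3 from -0.12 to 0.031, NDC80 from -0.035 to 0.099 and SPC25 from -0.28 to 0.031. The sign turned without S4 for BUB3, CDCA3 and SPC25, without siNegative for CDCA3 (0.018), and without S1 or mock for NDC80 (-0.018 without mock). With library totals only, BUB3 was 0.025 and CDCA3 0.0040, and with chemistry as a term BUB3 was 0.0090 and NDC80 -0.0057. With 12916478 counts in the shallowest library, SPC25 and CDC25C rest on the fewest reads after PRC1, and differences inside their counting intervals were not detectable at this depth.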
